A study of Nematostella vectensis with 10 samples.

Results

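The 5 collagen genes *ncol1* (NV2.12621), *ncol3* (NV2.10686), *ncol4* (NV2.11801), *Ncol* (NV2.11820) and *mcol1* (NV2.12623) were followed through the RNAseq of *Nvznf845* knockdown in the sea anemone *Nematostella vectensis*. They were chosen by name, as the collagen genes in the study's list of published cnidocyte genes, and make up 5 of the 24520 genes in the files. RNA came from whole wild-type gastrulae raised at 24 °C and collected at 28 hours post fertilization, in pools of about 1000 embryos. There were 5 pools from embryos injected with *Nvznf845* shRNA, a short hairpin RNA against a zinc finger transcription factor gene, and 5 pools from embryos injected with a control hairpin that the labels call a scramble RNA. Each knockdown pool had a control pool of the same replicate number and batch, with pairs 4 and 5 from the same batch. A single shRNA against *Nvznf845* was used, so the effects of that hairpin and of the loss of *Nvznf845* cannot be told apart here.

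Cnidocytes are the stinging cells of cnidarians, and each builds a capsule inside a vesicle of the secretory pathway. The capsule wall is made largely of minicollagens, which are short collagens whose triple helix is flanked by proline-rich stretches and by small cysteine-rich domains. Disulfide bonds between those domains harden the wall, which then withstands the high osmotic pressure that drives discharge. *ncol1*, *ncol3*, *ncol4* and *Ncol* carry the names of minicollagen genes, and *ncol3* is widely used as a marker of developing cnidocytes in *Nematostella*. The study lists *mcol1* among the cnidocyte genes without describing its product.

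Each of the 5 genes has a single transcript model, between 611 bases (*Ncol*) and 961 bases (*ncol1*) long. The knockdown libraries held between 20848941 and 35960095 counts (median 23423720), and the control libraries between 18891111 and 49293261 (median 27150158). Both libraries of pair 3 stood apart, since the 10 most abundant genes took 67.4% of the counts in the knockdown library and 56.03% in the control library, against 6.24% to 33.3% in the other libraries. After TMM scaling the size of that knockdown library came to 13091187 counts, and the sizes of the remaining 9 ran from 22835228 to 40507834. *Nvznf845* itself was at 9.50, 12.2, 6.80, 12.9 and 10.8 CPM in knockdown libraries 1 to 5, against 51.5, 53.7, 59.2, 58.6 and 58.6 CPM in control libraries 1 to 5 (CPM, each count as a rate relative to the TMM-scaled size of its library). The groups did not overlap, and 18.5% of the control mean was left.

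In control gastrulae the collagen genes differed widely in level, with *ncol3* far above the others and *Ncol* far below them. Levels were compared between genes as TPM, which take account of transcript length. *ncol3* was at 1014, 1423, 760.5, 1239 and 1323 TPM in control libraries 1 to 5 (mean 1152 ± 266, SD, n = 5), rank 115 of the 24520 genes by mean TPM. *ncol4* followed at 293, 378, 172, 321 and 342 TPM (301 ± 78.7), and *mcol1* at 234, 312, 142, 283 and 314 TPM (257 ± 71.98). *ncol1* was at 138, 161, 96.7, 177 and 186 TPM (152 ± 35.7), and *Ncol* at 12.3, 18.1, 8.35, 11.7 and 12.6 TPM (12.6 ± 3.51), rank 7869. By TPM all 5 genes were lowest in control library 3, the control library in which a few genes took most counts. By TMM-scaled CPM only *mcol1* was lowest there, and the other members were lowest in control library 4.

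The order *ncol3*, *ncol4*, *mcol1*, *ncol1*, *Ncol* held in all 5 control libraries. Within a library *ncol3* was 3.86-fold above *ncol4* (difference 1.95 ± 0.127 in log2 TPM, SD, n = 5). *ncol4* was 1.18-fold above *mcol1*, a difference of 0.24 ± 0.0803 in log2 TPM that ran from 0.12 to 0.32 over the libraries. The ranges of *ncol4* and *mcol1* over the control libraries overlapped widely, so their order rests on the comparison within libraries. *mcol1* was 1.67-fold above *ncol1* (0.74 ± 0.145 in log2 TPM), and *ncol1* was 12.1-fold above *Ncol* (3.60 ± 0.314). The sizes depend on how length is treated. With counts per annotated length in place of TPM, the mean log2 differences were 1.89, 0.42, 0.49 and 3.94 in the same order. Each of the 4 TPM differences had an exact two-sided sign-flip p of 0.063 over the 5 libraries, the smallest that 5 libraries allow. Benjamini-Hochberg adjustment over the 4 left this value unchanged. The order was taken from the mean TPM of these same libraries, so the p-values give no independent support for it.

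After *Nvznf845* knockdown all 5 collagen genes were lower by edgeR's quasi-likelihood test, called at a Benjamini-Hochberg adjusted p up to 0.05 and a log2 fold change beyond 0.59 (rounded) in either direction. These limits are those of the source publication's methods, which applied them to DESeq2 results and not to edgeR. Of all 19001 genes tested, 4.23% were called lower. The study marks all 5 genes as changed on these same libraries, so this count gives no independent support for a fall. Their median log2 fold change was −5.35, beside 0.0099 over all genes tested and −3.57 over the 803 genes called lower. The replicates are separate embryo pools, and the p-values measure the spread between them. In bulk RNA, fewer cnidocytes and less collagen RNA per cnidocyte cannot be told apart.

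*ncol3*, the most abundant of them, was at 27.0, 29.7, 25.6, 21.2 and 16.3 CPM in knockdown libraries 1 to 5, against 403, 446, 393, 339.7 and 359 CPM in control libraries 1 to 5. Its log2 fold change was −4.02 (standard error 0.176, 95% interval −4.41 to −3.63, adjusted p = 2.52e-08 from edgeR). *ncol1* was at 6.74, 3.66, 8.94, 7.22 and 5.41 CPM in knockdown libraries, against 73.0, 67.3, 66.2, 63.7 and 67.0 CPM in control libraries. These 2 minicollagen genes kept the most expression, and even their highest knockdown library was far below the lowest control library. The log2 fold change of *ncol1* was −3.41 (standard error 0.205, 95% interval −3.86 to −2.96, adjusted p = 2.54e-07 from edgeR), an interval that overlaps that of *ncol3*.

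*mcol1* was at 1.66, 1.90, 1.91, 1.58 and 1.21 CPM in knockdown libraries, against 72.4, 76.3, 57.3, 61.2 and 66.4 CPM in control libraries. Its mean was 1.65 ± 0.286 CPM after knockdown and 66.7 ± 7.79 in controls (SD, n = 5 each). *ncol1* averaged 6.39 ± 1.98 CPM after knockdown and 67.4 ± 3.43 in controls, so like control CPM stood beside unlike knockdown CPM. CPM take no account of transcript length, and by TPM the control mean of *mcol1* was above that of *ncol1* (257 against 152). The log2 fold change of *mcol1* was −5.35 (standard error 0.159, 95% interval −5.70 to −5.00, adjusted p = 3.69e-09 from edgeR), and this interval lies apart from those of *ncol1* and *ncol3*. *ncol4* was at 1.84, 1.31, 1.76, 1.44 and 0.938 CPM in knockdown libraries, against 133, 135, 101, 99.9 and 106 CPM in control libraries. Its log2 fold change of −6.33 (standard error 0.210, 95% interval −6.79 to −5.87, adjusted p = 5.35e-09 from edgeR) was the larger of these 2, with intervals that do not overlap.

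*Ncol* was the only member that was nearly undetected after knockdown, although it was also the only one with a low level in controls. It had 0, 0, 0, 0 and 1 counts in knockdown libraries 1 to 5, against 79, 89, 82, 68 and 90 counts in control libraries. The fit put it at −7.92 on the log2 scale (standard error 0.467, 95% interval −8.94 to −6.89, adjusted p = 2.17e-07 from edgeR), a value that depends on the small count the fit adds. Counted directly, 0.271% of *Ncol* was left (95% exact interval 0.00685% to 1.52%). Without knockdown library 5, which holds the only count, the fitted value was −9.26. A floor of 3 counts over the remaining 4 knockdown libraries puts *Ncol* there at most at 1.16% of control, or at least 85.8-fold lower. That limit leaves out the only count, and the exact interval over all 5 knockdown libraries reaches up to 1.52%.

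**Figure D1:**
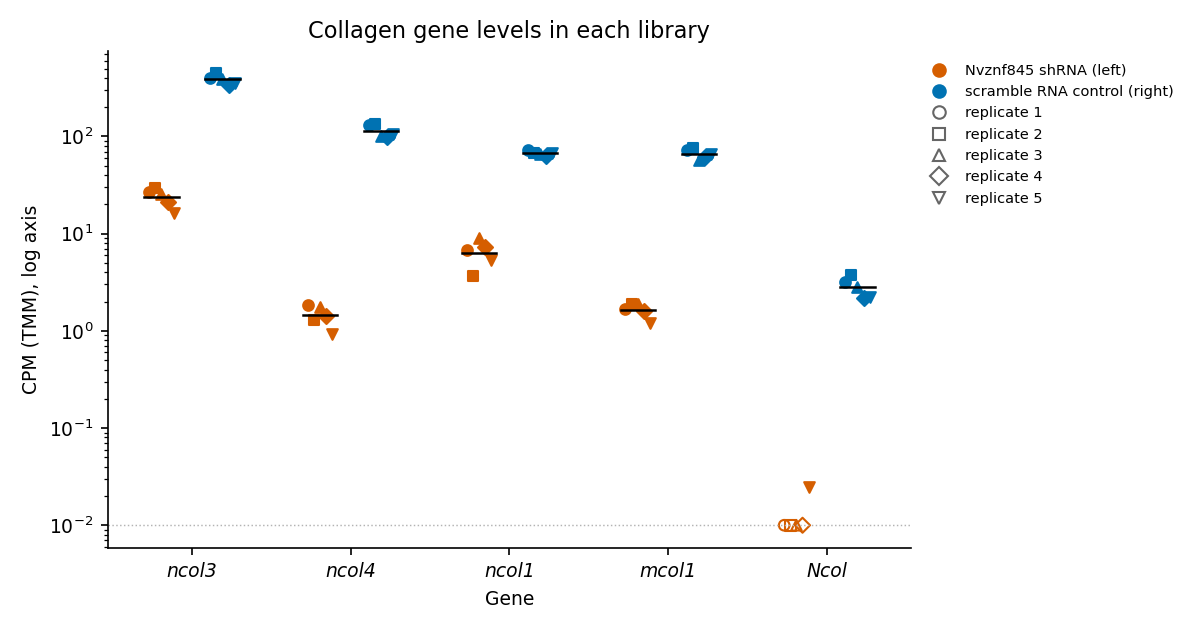
CPM (TMM-scaled) of the 5 collagen genes on a log axis, with the 5 *Nvznf845* shRNA libraries to the left of the 5 scramble RNA control libraries for each gene, 1 marker shape per replicate and black lines at group means. The open markers on the dotted line are the 4 *Ncol* values of 0, whose group mean is not drawn, and for each gene all knockdown libraries lie below all control libraries.

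The groups did not overlap for any of the 5 genes, with all knockdown libraries lower, which held for 4.75% of the genes tested. Leaving out pair 3 changed no call, and the log2 fold changes were then −3.57 for *ncol1*, −4.05 for *ncol3*, −5.46 for *mcol1*, −6.45 for *ncol4* and −7.85 for *Ncol*. With pairs 4 and 5 alone they were −3.39, −4.24, −5.54, −6.48 and −6.93 in the same order (largest adjusted p = 0.000491, from edgeR).

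Among the 803 genes called lower, the collagen genes were spread over much of the range of falls. Only 1 of these 803 genes had a larger fitted fall than *Ncol*, an order that its 1 knockdown count does not settle. 59 had a larger fall than *ncol4*, 157 than *mcol1*, 338 than *ncol3* and 420 than *ncol1*. The fall of *ncol1* was thus slightly smaller than the median of the genes called lower.

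**Figure D2:**
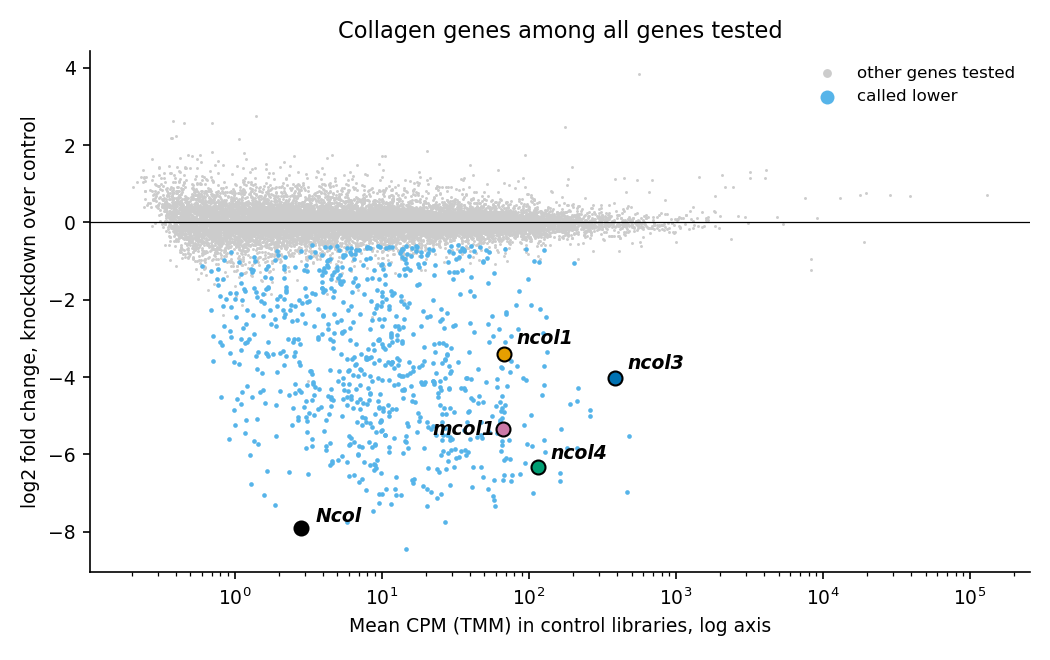
Log2 fold change of knockdown over control against the mean CPM of the control libraries (log axis) for the 19001 genes tested, with the genes called lower in blue and the 5 collagen genes as large labelled points. *ncol3* sits at the right of the lower genes with a mean of 388 CPM in controls, and *Ncol* at the bottom left with 2.85 CPM.

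*ncol1* and *ncol3* kept more of their expression than *mcol1* and *ncol4*. Over the pooled counts, *ncol1* kept 8.85% of its control level (95% exact interval 8.23% to 9.52%) and *ncol3* 6.03% (5.81% to 6.25%). *mcol1* kept 2.40% (2.09% to 2.75%) and *ncol4* 1.201% (1.03% to 1.39%). These intervals cover counting error only and rest on 798, 3095, 213 and 182 knockdown counts. The deposited counts were whole numbers in 0 of 10 libraries for *ncol1* and *ncol3*, in 5 for *mcol1* and in 3 for *ncol4*. Fractions arise where Salmon divides reads between transcripts, and the part of such reads in these residuals was not tested. Within pairs 1 to 5 the residual of *ncol1* was 9.24%, 5.44%, 13.5%, 11.3% and 8.06%. That of *ncol3* was 6.71%, 6.65%, 6.51%, 6.24% and 4.54%.

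*mcol1* kept 2.30%, 2.49%, 3.33%, 2.59% and 1.82% of its control level in pairs 1 to 5, and *ncol4* kept 1.38%, 0.965%, 1.73%, 1.44% and 0.884%. Both were highest in pair 3 and lowest in pair 5, and they overlapped neither with each other nor with *ncol1* and *ncol3*, whose ranges overlapped. *Ncol* had 1.09% in pair 5, within the range of *ncol4*, and 0 counts in the knockdown library of the other pairs.

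Set against each other within the pairs, where the scaling of the libraries cancels, most members differed in loss by more than the spread between pairs. *ncol4* lost more than *mcol1* in all 5 pairs, with a mean difference in log2 ratio of −0.98 ± 0.238 (SD, n = 5 pairs; range −1.36 to −0.73). *mcol1* lost more than *ncol3* in all 5 pairs, with a mean difference of −1.29 ± 0.220 in log2 ratio, and more than *ncol1* in all 5, with −1.87 ± 0.424. *ncol4* differed from *ncol3* by −2.27 ± 0.329 and from *ncol1* by −2.86 ± 0.262, again in all 5 pairs. *ncol3* lost more than *ncol1* in 4 of 5 pairs (−0.59 ± 0.532, range −1.05 to 0.28), a difference close to the spread between pairs. The exception was pair 2, where *ncol1* had its largest loss.

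*Ncol* lost more than *mcol1*, *ncol3* and *ncol1* in all 5 pairs and more than *ncol4* in 4 of 5, with 0.5 counts added to each library. With 2 counts added, *Ncol* no longer had the larger mean loss beside *ncol4* and *mcol1*, so its place relative to these 2 genes is set by the added count. Of the 10 comparisons between members, 8 reached the smallest p that 5 pairs allow, 0.063 by an exact two-sided sign-flip test (0.0781 after Benjamini-Hochberg adjustment over the 10). *ncol3* against *ncol1* had an exact p of 0.125 and *Ncol* against *ncol4* one of 0.25, so none of the 10 could pass a threshold of 0.05.

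**Figure D3:**
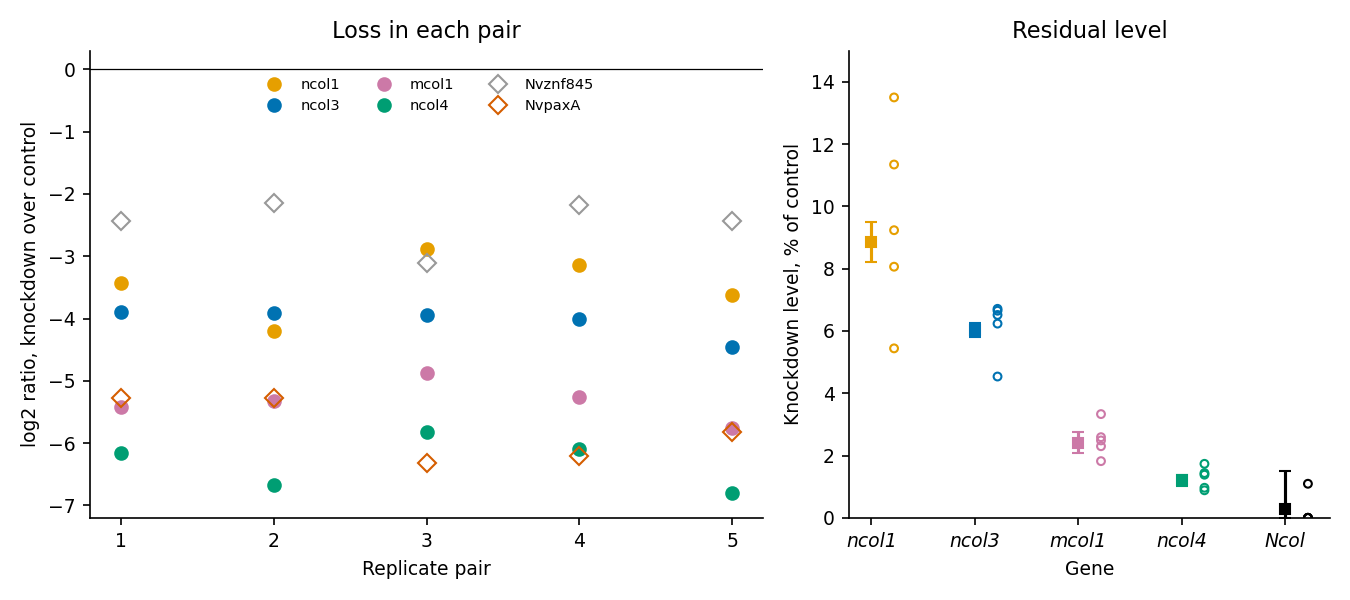
Left, log2 ratio of knockdown over control CPM in each replicate pair (0.5 counts added) for 4 collagen genes (filled circles) and for *Nvznf845* and *NvpaxA* (open diamonds). Right, knockdown level as a percent of control, with squares for pooled counts, bars for the 95% exact interval of counting error and open circles for single pairs. *ncol4* lies below *mcol1*, and *mcol1* below *ncol3* and *ncol1*, in all 5 pairs.

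The losses within pairs were set beside that of the targeted transcript. *Nvznf845* had log2 ratios of −2.44, −2.14, −3.12, −2.18 and −2.43 in pairs 1 to 5, with its largest loss in pair 3. In that pair *ncol1*, *mcol1* and *ncol4* had their smallest losses, with log2 ratios of −2.88, −4.88 and −5.82, whereas *ncol3* had its smallest loss in pair 1 (−3.90). *NvpaxA*, a paired-box transcription factor gene, also had its largest loss in pair 3 (−6.31), against −5.28, −5.28, −6.21 and −5.82 in pairs 1, 2, 4 and 5. The largest loss of *ncol3*, *mcol1* and *ncol4* was in pair 5, with log2 ratios of −4.46, −5.76 and −6.80. With 5 pairs no correlation was computed, and the part of the small effective size of knockdown library 3 in these values was not tested.

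The relative spread between libraries is given beside the part that counting alone would give, which is larger for genes with few counts. The coefficient of variation of CPM over the 5 knockdown libraries was 17.3% for *mcol1*, where Poisson counting at the mean count gives 15.3%, and 24.95% for *ncol4*, where it gives 16.6%. For *ncol3* it was 22.03% against 4.02% from counting, and for *ncol1* 30.99% against 7.92%. In control libraries it was 5.09% for *ncol1*, 10.6% for *ncol3*, 11.7% for *mcol1* and 15.2% for *ncol4*. Differences in spread between genes or groups were not tested, and the knockdown value of *ncol1* includes the low level of library 2 (3.66 CPM).

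The collagen transcripts that remained after knockdown had another make-up than those of control gastrulae. All 5 genes together were at 37.3, 36.6, 38.2, 31.4 and 23.9 CPM in knockdown libraries 1 to 5, against 684, 729, 620.4, 567 and 601 CPM in control libraries, which leaves 5.23% of the control mean (3.97% to 6.16% within pairs). By TPM, the order was *ncol3*, *ncol1*, *mcol1*, *ncol4*, *Ncol* in all 5 knockdown libraries, so that *ncol1* and *ncol4* had changed places relative to the controls. Their mean levels after knockdown were 69.2 ± 27.9 TPM for *ncol3*, 13.2 ± 4.19 for *ncol1*, 6.06 ± 2.151 for *mcol1* and 3.57 ± 1.10 for *ncol4* (SD, n = 5).

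As a share of the summed collagen TPM, *ncol3* averaged 74.1% ± 5.05 after knockdown (range 70.3% to 82.4%) and 61.6% ± 1.75 in controls (range 59.9% to 64.5%, SD, n = 5 each). *ncol4* took 3.95% ± 0.539 in knockdown libraries and 16.0% ± 1.01 in control libraries (SD, n = 5), and *mcol1* 6.59% ± 0.343 and 13.6% ± 0.903. The groups did not overlap for these 3 genes. *ncol1* took 14.2%, 7.68%, 18.7%, 18.2% and 17.9% in knockdown libraries 1 to 5, against 8.17%, 7.04%, 8.20%, 8.71% and 8.53% in control libraries. The share of *ncol1* was higher in the knockdown library in all 5 pairs. Only knockdown library 2 fell within the range of the controls, and in that library *ncol3* took its highest share. The ratio of *ncol3* to *ncol1* TPM was 10.7 in knockdown library 2 and 3.75 to 5.32 in the other knockdown libraries, against 7.004 to 8.81 in the control libraries. These shares describe the same losses in another form and were not tested.

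**Figure D4:**
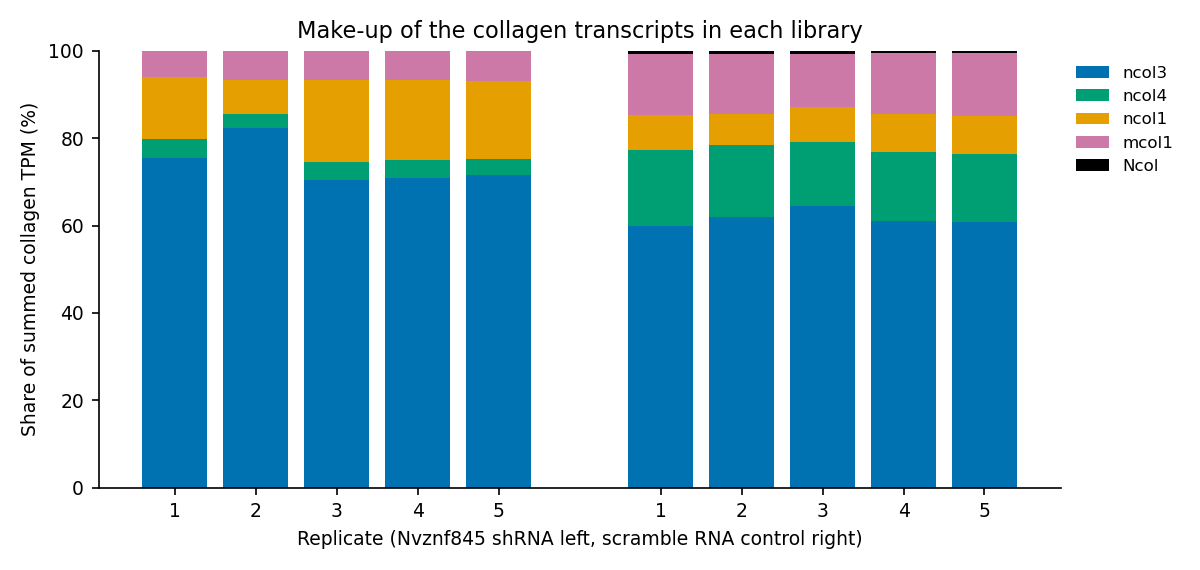
Share of each gene in the summed TPM of the 5 collagen genes, in percent, as a stacked bar per library, with *Nvznf845* shRNA replicates 1 to 5 left of scramble RNA control replicates 1 to 5. The *ncol4* and *mcol1* parts are smaller in all knockdown libraries than in any control library, and the *ncol1* part is larger in the knockdown library of all 5 pairs, by the least in replicate 2 (7.68% against 7.04%).

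Genes with a course like that of each collagen gene were sought over the 10 libraries, among the 16814 tested genes with at least 1 CPM in controls. The measure was the root mean square distance between log2 CPM values, each centred on the gene's own control mean, and it mostly reflects the size of the loss. The nearest gene to *ncol1* was *coup-like2*, an orphan nuclear receptor gene of the COUP type, at a distance of 0.248. It was at 0.685 ± 0.109 CPM after knockdown and at 7.84 ± 1.80 in controls (SD, n = 5). The nearest to *ncol3* was NV2.20489, at 0.118, which had a similar level as well (25.1 CPM after knockdown and 386 in controls). The nearest to *mcol1* was NV2.1407, at 0.153, and of the named genes *ggt*, a gamma-glutamyltransferase gene by its name, at 0.249. For *ncol4* the nearest named gene was *NvpaxA* (0.597), at rank 38 of all genes, and the nearest gene of all, an unnamed one, was at 0.244. For *Ncol* the nearest named gene was *ncol4* (0.605), at rank 16, and the nearest gene of all, also unnamed, was at 0.261. *Ncol* had only 1 count over the knockdown libraries, so its distances depend on the 0.5 counts added to each library. The files give no names for NV2.20489 and NV2.1407.

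Among the members themselves *ncol1* and *ncol3* were nearest to each other (0.583), and *ncol1* and *ncol4* were far apart (2.04). By nearness to *ncol1*, *ncol3* came at rank 81 of all genes, and by nearness to *mcol1*, *ncol4* came at rank 141. Many genes outside the list thus lay closer to each of these collagen genes than the nearest other collagen gene did.

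Other genes of the cnidocyte, listed by name, were read beside the collagens. Of 8 capsule, venom and effector genes, 5 could be tested and all 5 were lower, with log2 fold changes of −3.97 to −5.33 (median −4.44), where 4.23% of all genes tested were called lower. These 5 genes carry a mark for this knockdown in the published list, set on the same libraries, so their count is no separate support for a fall. *Ngal*, the nematogalectin gene, whose product in *Hydra* belongs to the nematocyst, was at 11.1 ± 1.47 CPM after knockdown and at 217 ± 62.6 in controls (SD, n = 5). Its residual of 5.12% lay between those of *ncol3* and *mcol1*. *ggt* kept 2.48% and *NEP3-like*, named after a nematocyst expressed protein, 2.82%, values near the 2.48% of *mcol1* on the same ratio of group means. *NEP3*, *NEP8* and *Tx60B-like5* had too few counts to be tested. Over all knockdown libraries against all control libraries, *NEP3* had 0 against 25 counts, *NEP8* 12 against 13 and *Tx60B-like5* 22 against 51.

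Of 15 regulator genes, the targeted gene included, 15 could be tested, 8 were lower (against 4.23% of all genes tested) and none was higher by edgeR, with none higher at an unadjusted p under 0.05. Their median log2 fold change was −1.23. *cnido-jun*, a gene named after the AP-1 subunit Jun, had the largest fall of them (log2 fold change −6.59, adjusted p = 6.15e-08 from edgeR), close to that of *ncol4*. *NvfoxE-like*, a forkhead gene, had a log2 fold change of −0.54 (adjusted p = 0.0425 from edgeR), too small in size for a call, as was *ATF2-like1*, named after a bZIP factor, at −0.45 (adjusted p = 0.0160 from edgeR). Apart from the targeted gene, those called lower are also the ones marked for this knockdown in the published list, on the same libraries, so this count is not independent of that list.

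The gene numbers of *ncol1* and *mcol1* are separated by a single number. NV2.12622, the gene between them, had 0 counts in all 5 knockdown libraries, against 13, 6, 5, 11 and 10 counts in control libraries, too few to be tested with edgeR. With a floor of 3 counts over the knockdown group it was at least 13.6-fold lower. Of the 16 genes in the files whose numbers lie within 2 of a collagen gene, 9 could be tested, 3 were lower and none was higher by edgeR, where 4.23% of all genes tested were lower. 2 of the 3 carry the numbers on either side of *Ncol*, with log2 fold changes of −5.23 and −5.38 (adjusted p = 2.54e-07 and 2.57e-08 from edgeR), and the other has the number after *ncol4* (−2.32, adjusted p = 2.98e-08 from edgeR). The other 6 tested neighbours were not called. Neighbouring numbers can mean neighbouring or overlapping genes, and shared reads between them were not tested. The deposited counts of *Ncol* were whole numbers (within 0.001) in 8 of 10 libraries. These 8 include knockdown libraries 1 to 4, where its count was 0 and so whole in any case. The counts of *mcol1* were whole in 5 libraries, those of *ncol4* in 3 and those of *ncol1* and *ncol3* in none. Fractions arise where Salmon divides reads between transcripts, and which transcripts shared such reads was not tested.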

How the data were processed

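The data are 10 RNAseq libraries of *Nematostella* gastrulae, grouped by treatment and replicate number as labelled. Per the labels and the study's methods, the authors used Salmon and the Galaxy platform with Nvec200 as reference; Salmon's version is not given in the sources used here. Each deposited file holds estimated counts by transcript and the authors' TPM, which use effective length. No molecular identifiers are described. The exact intervals of pooled counts cover counting error only. The intervals of the fold changes come from the edgeR fit, which includes the spread between libraries.

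Counts were summed from 35819 transcripts to 24520 genes, found by the number in the transcript name, and rounded. The test was the quasi-likelihood test of edgeR 4.0.16 (R 4.3.3) after TMM scaling, with filterByExpr (at least 10 counts), a robust fit and no term besides condition; adjustment was by Benjamini-Hochberg over the 19001 genes tested. A standard error is the size of the log2 fold change over the root of F. The exact intervals are Clopper-Pearson intervals of pooled counts, scaled by effective library size. The code was tested on simulated data. Alternatives were DESeq2 1.42.0, limma 3.58.1 (voom, and log2 TPM with 1 or 0.1 added), other scalings and filters, replicate and batch blocks, length offsets, and leaving out libraries or pairs.

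The text names the 5 members, genes of the effector and regulator lists, number neighbours and the genes nearest in course. The members and lists were chosen with earlier results of these data known. The replicate numbers pair the libraries, as the study describes paired replicates and same-numbered libraries carry the same batch label; deviations from the group means correlated at 0.474, −0.0386, 0.191, 0.164 and 0.609 for pairs 1 to 5. The reference table held none of the gene numbers or names, so no coordinates or sequences are given.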

Additional observations from a re-analysis of the deposited data

Results flagged for a closer look

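Of 25 sets of 5 values looked at (CPM and collagen shares of each gene in each group, and the log2 ratios in pairs), 4 had a lowest or highest value far from the others; chance gives about 1 in 20, and 2 of the 4 are the same single count of *Ncol* beside zeros, which meets the limit by construction. The log2 ratio of *ncol3* in pair 5 was −4.46, against −4.002 to −3.896 in the other pairs. The share of *mcol1* in the collagen TPM of knockdown library 1 was 5.98%, against 6.65% to 6.80% in the other knockdown libraries. The single count of *Ncol* in knockdown library 5 gave 0.0247 CPM and a share of 0.163%, against 0 in the other knockdown libraries.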

How the results depend on the processing

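All 5 collagen genes stayed called lower in each of 29 alternative fits, 15 of which left out a library or a pair (largest adjusted p = 0.000491, pairs 4 and 5 alone in edgeR). With the replicate block in edgeR, 820 genes were called lower, the log2 fold changes were −3.46 (*ncol1*), −4.04 (*ncol3*), −5.36 (*mcol1*), −6.34 (*ncol4*) and −7.89 (*Ncol*), and the block changed no call of a collagen gene. The value of *Ncol* ran from −9.26 without knockdown library 5 to −3.69 on log2(TPM + 1), and was −6.69 on log2(TPM + 0.1) and −6.79 by limma-voom. The count of all genes called lower ran from 660 (library size alone) to 960 (DESeq2), beside 803. With 2 counts added to each library, the difference in loss turned to 1.203 for *Ncol* against *ncol4* and to 0.23 for *Ncol* against *mcol1*, as the added counts exceed the knockdown counts of *Ncol*. As shares of counts in place of TPM, *mcol1* took 4.95% in knockdown and 10.4% in control libraries, and in controls *ncol1*, *ncol4* and *Ncol* took 10.6%, 17.9% and 0.440%, since counts take no account of length. Low counts limit the values of *Ncol* and NV2.12622, and kept *NEP3*, *NEP8*, *Tx60B-like5* and 7 of the 16 number neighbours, NV2.12622 among them, out of the test.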
